A study of Mus musculus with 26 samples.

Results

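The libraries compared here are those of ESCs lacking the super-enhancer beside the Tdpoz genes (SE KO RA, 2 libraries) and of ESCs in which Dux was knocked down (Dux KD RA, 2 libraries), both after RA. 2C-like cells are rare mouse embryonic stem cells (ESCs) that transcribe genes of the 2-cell embryo, and retinoic acid (RA) is 1 of the treatments that raise their transcripts. The libraries were chosen by sample title and are 4 of the 26 libraries of the series. All are poly(A) RNA-seq of the R1 ESC line kept with LIF on gelatin, in 0.53 μM RA for 48 h. A pair of further groups served as references, parental R1 cells in the same RA (RA, 2 libraries) and parental cells given DMSO, the solvent control (DMSO, 2 libraries). The labels do not give the deleted interval, the knockdown construct, or the number of clones behind a line, so a line and its perturbation cannot be told apart. No Dux KD or SE KO library in DMSO was analysed here, so what each line was like before RA is not known.

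Dux is a homeodomain transcription factor of the early embryo whose activity in ESCs switches on a set of genes often called 2C genes. Among them are the Zscan4 family of telomere-associated zinc finger proteins, the Usp17l deubiquitinases, the Tdpoz genes, which encode TRAF and POZ domain proteins, and many Eif1a-like copies. Super-enhancers are dense clusters of enhancers. Upstream of Dux act activators such as Dppa2 and Dppa4 and a larger group of repressors. The comparison asks where loss of an enhancer beside 2C genes and loss of the factor itself part ways in 1 and the same induction.

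The 4 libraries held between 15092245 and 22716564 counts, so that 3 counts correspond to between 0.127 and 0.177 CPM, counts scaled to a common library size. 1 SE KO RA library, replicate 1, carries the genotype label WT although its title names the SE KO. Its log2 CPM lay 0.447 (root mean square over genes) from the other SE KO RA library and at least 0.947 from either RA library, and it is kept in the group its title gives. The counts over all genes and the 2C genes, and those of some of the gene lists whose counts moved, are also given without it. Of the marker lists, the summed ESC markers (Pou5f1, Sox2, Nanog, Zfp42, Esrrb) stood at 1280 and 1260 CPM in SE KO RA and at 2770 and 2790 in Dux KD RA, and the summed 2-cell-like markers at 44.4 and 40.9 against 342 and 328. The feeder fibroblast list summed to 41.7 to 46 against 25.2 to 26 CPM, and the parental RA libraries had 51.5 and 60.6. Primitive endoderm markers summed to 57.7 and 61.8 CPM in SE KO RA against 110 and 111 in Dux KD RA (83.2 and 86.5 in RA), trophectoderm markers to 9.77 and 11.5 against 19.7 and 18.1 (11.5 and 13.1 in RA), and neural markers to 114 and 103 against 94 and 92.1. Sums hide single markers. Called lower in SE KO RA were 3 of 5 ESC, 5 of 5 2-cell-like, 1 of 5 tested fibroblast, 4 of 6 primitive endoderm and 1 of 4 tested trophectoderm markers. Called higher were 2 fibroblast markers and 1 of 3 neural markers (17.0% of all genes were lower and 11.2% higher). Of the trophectoderm markers, Gata3 had a log2 fold change of -3.56, Eomes -0.57, Krt7 0.19 and Cdx2 1.05. The part of these shifts in the results was not tested. In bulk RNA, fewer cells of a type and less RNA per cell cannot be told apart.

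Dux itself was measured as Duxf3 (GRCm38 chr10:58229979-58232675, minus strand), which checks the knockdown. It had 16 and 6 counts in Dux KD RA, 2 and 10 in SE KO RA, 49 and 59 in RA, and 1 and 0 in DMSO. Both lines thus lay below the parental RA libraries, by a log2 fold change of -1.93 in Dux KD RA and -3.18 in SE KO RA, both called. The replicates of each line lay far apart and the lines overlapped with each other, with a log2 fold change of -1.25 (SE 0.64, adjusted p = 0.098, edgeR). The difference was not called with all 4 libraries, but it was called without SE KO RA replicate 2 or without Dux KD RA replicate 2, at -2.69 and -1.76, and with a correction for GC content, at -1.78.

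Dux thus does not tell the lines apart under RA, and the deleted interval that would check the SE KO is not given. Other libraries carry the names SE KO and Dux KD, among them Dux overexpression in the SE KO. The labels do not say whether their cells are the same lines. In them Dux lay between 0 and 0.0649 CPM in Dux KD and between 1.28 and 2.10 in SE KO. Most 2C genes were higher in SE KO there, the opposite order to theirs under RA. The treatments of these libraries are not matched. Dux was overexpressed only in SE KO ones and Zscan4 only in Dux KD ones, and Dux overexpression by itself can raise 2C genes. Only the libraries given the splicing inhibitor pladienolide B, described below, share a treatment. Of the 3571 genes called lower in SE KO RA than in Dux KD RA, 14.9% lay above Dux KD in all other SE KO libraries and 8.04% below, and of the 2340 called higher, 6.03% lay above and 6.24% below (9.93% and 7.37% of all genes). Whether names of libraries were exchanged between the lines was not tested, and if they were, every direction given here between SE KO RA and Dux KD RA would turn. Groups are called by the names on their labels throughout.

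Of 20953 genes tested, 2340 (11.2%) were called higher and 3571 (17.0%) lower in SE KO RA than in Dux KD RA, with an adjusted p under 0.05 and a log2 difference of 1 or more in size (edgeR quasi-likelihood test). The median log2 fold change of all genes was -0.10. Without SE KO RA replicate 1 the numbers were 2201 and 3019. Among the 4319 genes that RA raised over DMSO in parental cells, 1423 (32.9%) were lower and 466 (10.8%) higher in SE KO RA, while of the 2180 genes (10.4%) that RA lowered, 304 (13.9%) were lower and 429 (19.7%) higher. These comparisons share no library. GC content moved with the calls, the median transcript GC being 46.8% in genes called lower, 49.2% in genes not called and 54.9% in genes called higher. Its part in the result was not tested, but with each library centred within bins of GC content, an alternative chosen after the values were seen, 1804 genes were higher and 3540 lower.

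**Figure D1:**
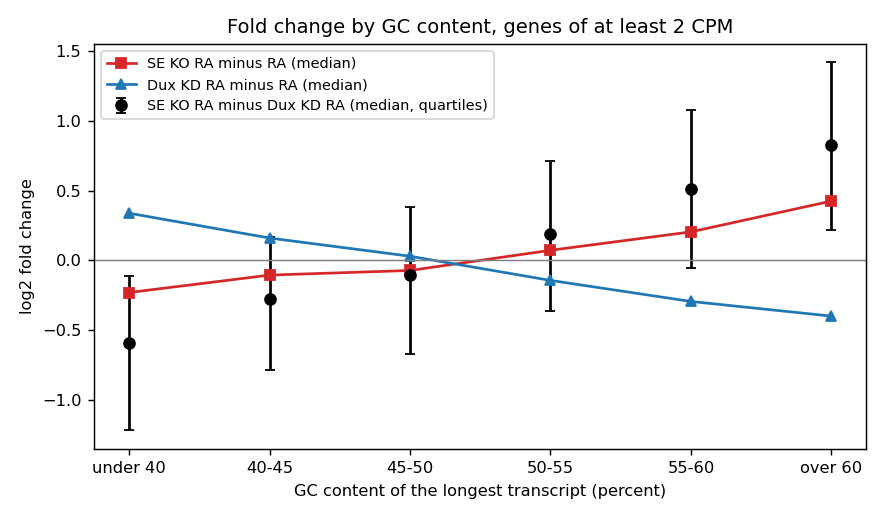
Median log2 fold change by GC content of the longest transcript, for genes of at least 2 CPM in 1 of the lines. Black points and bars are the median and quartiles of SE KO RA minus Dux KD RA, squares and triangles the medians of each line minus parental RA. The black median ran from -0.60 below 40% GC to 0.83 above 60%, with the lines tilted in opposite directions against RA.

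The clearest difference lay in the 2C genes. The 7 lists of 2C genes (83 listed) had 69 tested members. Of these, 55 were called lower and 1 higher in SE KO RA (17.0% and 11.2% of all genes), with a median log2 fold change of -2.29. The same shares of all genes stand against the counts of each 2C list below. The numbers were the same, 55 and 1, with the GC correction and without SE KO RA replicate 1. Against parental RA, 55 of the 69 were called lower and none higher in SE KO RA (11.0% and 6.57% of all genes). In Dux KD RA 10 were called lower and 6 higher (4.53% and 6.41% of all genes). Both sets of values share the RA libraries and are set side by side only. RA itself raised 58 of the 69 over DMSO (20.6% of all genes).

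All 9 Zscan4 genes and pseudogenes were called lower in SE KO RA than in Dux KD RA (median -2.28). These genes lie in tandem on chromosome 7 and are nearly identical, so reads may be split among them and single values are uncertain. Zscan4c stood at 13.9 and 13.3 CPM in SE KO RA against 94.1 and 88.7 in Dux KD RA, 131 and 114 in RA, and 1.76 and 1.32 in DMSO. The log2 fold change between the lines was -2.75 (SE 0.11, adjusted p = 5.89e-17). Zscan4d stood at 26.7 and 24.6 CPM in SE KO RA against 233 and 224 in Dux KD RA and 280 and 242 in RA, a log2 fold change between the lines of -3.16 (SE 0.13). In Dux KD RA against RA the 9 had a median of -0.80, with 2 called lower. Neither Zscan4c nor Zscan4d was called there, at log2 fold changes of -0.42 and -0.19, whereas both were called lower in SE KO RA, at -3.17 and -3.35.

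The promoters of the pair are given to show how alike the copies are. They come from RefSeq (GRCm38.p6) and run from 250 bases before to 50 bases after the start, Zscan4c from chr7:11005495-11005794 on the plus strand and Zscan4d from chr7:11166099-11166398 on the minus strand. Capitals mark the TATAAAA motif, which was searched on both strands and chosen after values were seen. The pair shared 281 of 289 aligned bases (97.2%).
Zscan4c: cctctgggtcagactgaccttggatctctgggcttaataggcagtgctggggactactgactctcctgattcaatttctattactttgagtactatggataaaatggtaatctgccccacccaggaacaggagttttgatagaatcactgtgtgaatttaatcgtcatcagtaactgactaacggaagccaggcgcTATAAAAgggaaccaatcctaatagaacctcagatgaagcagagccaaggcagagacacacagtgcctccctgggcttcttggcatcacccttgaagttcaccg
Zscan4d: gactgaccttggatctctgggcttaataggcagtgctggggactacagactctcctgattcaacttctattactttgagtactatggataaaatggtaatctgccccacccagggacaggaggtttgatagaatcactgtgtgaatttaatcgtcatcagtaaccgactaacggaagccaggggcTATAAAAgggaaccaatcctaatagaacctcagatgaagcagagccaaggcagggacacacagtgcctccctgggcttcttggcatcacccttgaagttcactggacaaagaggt
The motif was present in 4 of the 4 Zscan4 promoters in the table and in 3.47% of the 13364 promoters of tested genes. The Dux motif, searched on both strands, was found in 2 of the 13364 promoters and in none of 37 promoters of 2C genes, and the RA response element (a direct repeat) in none of them, which says only that these letters are not in the window.

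The 5 Usp17l genes, which encode deubiquitinases, fell below RA in both lines. Usp17lc stood at 3.16 and 2.41 CPM in SE KO RA against 12.6 and 12.2 in Dux KD RA, and 33.9 and 27.1 in RA, and the lines differed by a log2 fold change of -2.16 (SE 0.18). Usp17lb stood at 6.84 and 6.9 CPM in SE KO RA against 36.6 and 39.8 in Dux KD RA, and 194 and 163 in RA. All 5 were called lower than RA in Dux KD RA and lower again in SE KO RA than in Dux KD RA. SE KO RA lay below Dux KD RA in both libraries of each for both genes (44.2% of all genes).

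The 10 tested Eif1a-like genes, copies related to translation initiation factor 1A, were all called lower in SE KO RA than in Dux KD RA (median -3.04), and none was called in Dux KD RA against RA. Gm2016 stood at 5.17 and 7.07 CPM in SE KO RA against 76.8 and 80.5 in Dux KD RA, and 82.0 and 61.8 in RA. Gm5662 stood at 14.8 and 16.6 CPM in SE KO RA against 149 and 145 in Dux KD RA, and 174 and 134 in RA. For both, Dux KD RA and RA overlapped and SE KO RA lay below. Of the 4 tested Tcstv genes, 3 were called lower. AF067063 had no counts in SE KO RA and 19 in Dux KD RA, which makes it at least 4.15-fold lower against a floor of 3 counts per library, a bound that covers counting error only.

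Of 31 other 2C genes, 24 were called lower and 1 higher in SE KO RA (17.0% and 11.2% of all genes). Cpb2, a carboxypeptidase gene, stood at 0.233 and 0.508 CPM in SE KO RA against 5.34 and 3.83 in Dux KD RA (log2 fold change -3.59, SE 0.38). Pramel7, a PRAME-like gene of the preimplantation embryo, had 1 count in SE KO RA and 52 in Dux KD RA, a ratio of 68.2 (95% exact interval 11.7 to 2750, counting error only). Zfp352, a zinc finger gene of the 2-cell embryo, stood at 0.419 and 0.296 CPM in SE KO RA against 0.919 and 1.41 in Dux KD RA, and 1.28 and 1.63 in RA (log2 fold change -1.70, SE 0.43). The exception was Pdgfrl, at 18.5 and 15.0 CPM in SE KO RA against 7.06 and 6.83 in Dux KD RA (log2 fold change 1.27, SE 0.15). The Obox genes, homeobox genes of the early embryo, were too low to compare, Obox3 having no counts in SE KO RA and 3 and 0 in Dux KD RA.

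Cells named SE KO and Dux KD were also induced with pladienolide B (PlaB), a splicing inhibitor given at 4 nM for 4 days. There the order was the reverse. Zscan4c stood at 178 and 145 CPM in SE KO PlaB and at 1.53 and 1.38 in Dux KD PlaB, with 2675 and 2520.4 in parental PlaB. Of the 69 2C genes, 58 were called higher in SE KO PlaB than in Dux KD PlaB and none lower (12.5% and 9.07% of all genes). The difference between the lines differed between RA and PlaB, by an interaction contrast, for 62 of them in the direction lower under RA (21.6% of all genes) and for 1 in the other (15.9%). This contrast was chosen after the values were seen. Dux itself stood at 1.65 and 2.10 CPM in SE KO PlaB against 0.0589 and 0 in Dux KD PlaB. Dux KD thus left up to 16 counts of Dux under RA and at most 1 under PlaB, a difference whose part in the result was not tested. RA and PlaB also differ in dose and duration. Across the other settings, 4 SE KO libraries (PlaB and Dux OE, Dux overexpression) were set against 4 Dux KD libraries (PlaB and Zscan4 OE). Of the 69, 54 were higher in every SE KO library and none lower in every one (9.93% and 7.37% of all genes). These treatments are not matched.

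**Figure D2:**
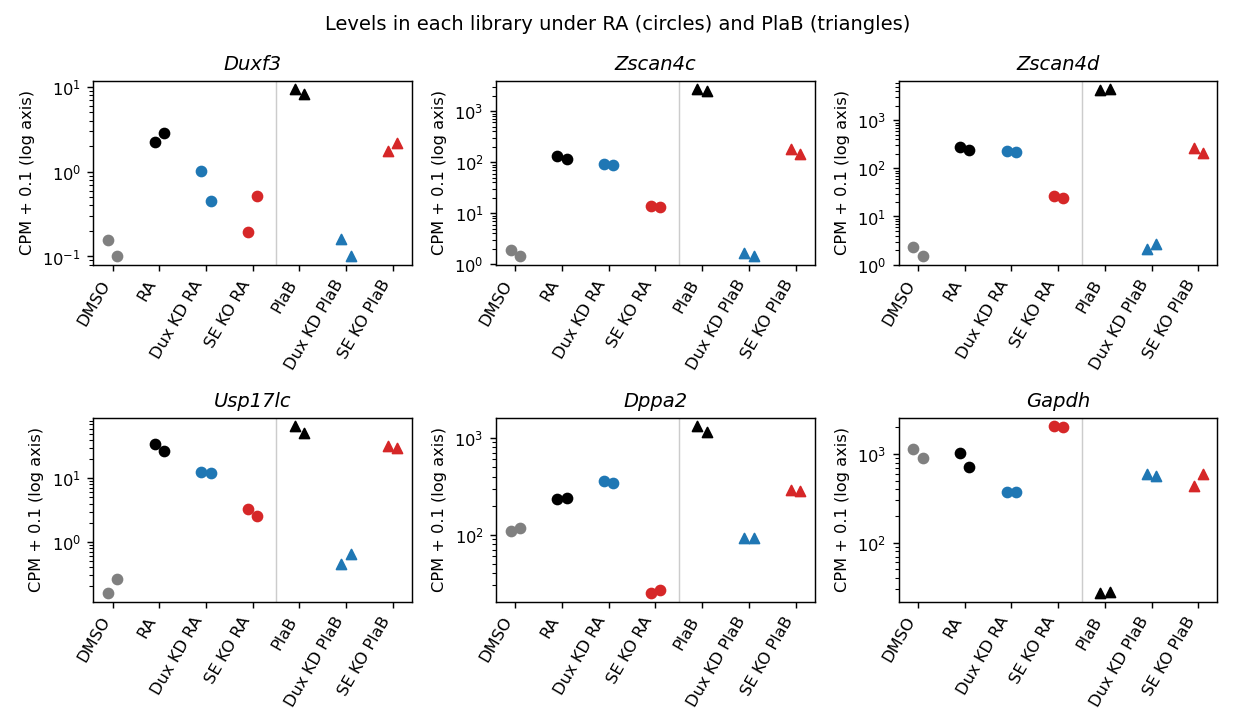
CPM plus 0.1 on a log axis in each library for 6 genes, under RA with its DMSO control (circles) and under PlaB (triangles). Under RA the SE KO libraries lie below the Dux KD libraries for Zscan4c, Zscan4d, Usp17lc and Dppa2 and above them for Gapdh. Under PlaB the SE KO libraries lie above the Dux KD libraries for Duxf3, Zscan4c, Zscan4d, Usp17lc and Dppa2.

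The Tdpoz genes lie on chromosome 3, from 93068823 to 94072644. Of 9 members 7 were tested, and 4 were called lower in SE KO RA than in Dux KD RA. All are low. Tdpoz3 had 2 and 4 counts in SE KO RA against 12 and 14 in Dux KD RA, and 16 and 7 in RA (log2 fold change between lines -2.45, SE 0.57). Tdpoz4 had 4 and 7 counts in SE KO RA against 13 and 17 in Dux KD RA, and 8 and 4 in RA (-1.81, SE 0.53), so that SE KO RA and parental RA overlapped for it, and the call was lost without Dux KD RA replicate 2. Tdpoz6 had no counts in SE KO RA or RA and 20 and 22 in Dux KD RA, at least 9.17-fold higher than in SE KO RA, a difference that DESeq2 did not call. The copies are nearly identical, so reads may be assigned to the wrong one.

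Within 1 Mb of that span, 180 genes were in the table, 56 were tested, 14 were called lower and 1 higher. Inside the span it was 9 lower and none higher of 20 tested (17.0% of all genes were called lower), and in the flanks 5 lower and 1 higher of 36. Not all were Tdpoz relatives. Tchh, which encodes the hair protein trichohyalin, had 32 and 26 counts in SE KO RA against 112 and 90 in Dux KD RA and 63 and 75 in RA, and Them4, a thioesterase gene in the flank, had 72 and 80 against 152 and 157. The abundant S100a11 and S100a10, between Tchh and Tdpoz3, were not called, at log2 fold changes of 0.01 and -0.15. Of the 56 tested genes 15 had no counts in either SE KO RA library, and of these 15 all but Tdpoz6 had at most 6 counts summed over both Dux KD RA libraries.

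**Figure D3:**
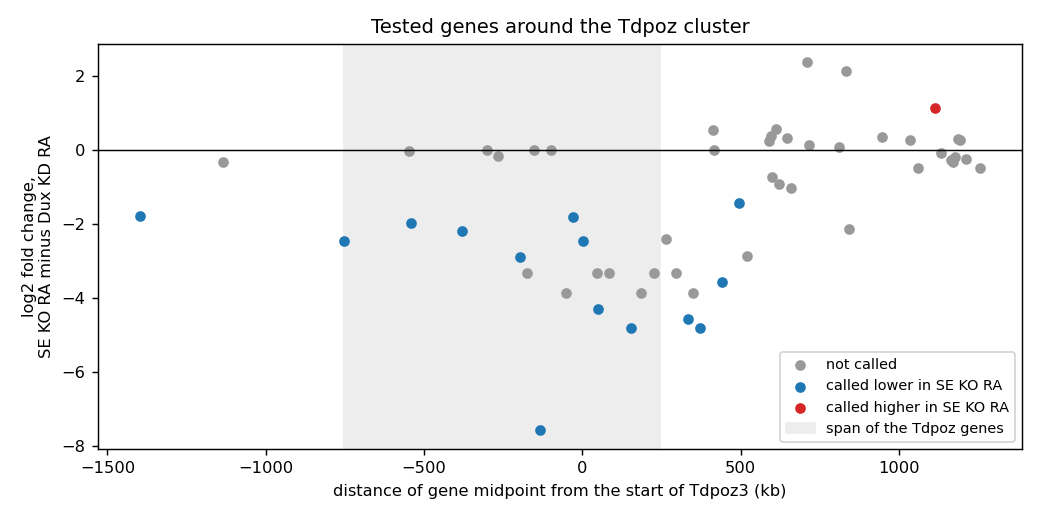
Log2 fold change, SE KO RA minus Dux KD RA, of the 56 tested genes against the distance of their midpoint from the start of Tdpoz3, with the span of the Tdpoz genes shaded. The 9 called lower inside the span are joined by 5 in the flanks. Values of genes with no counts in a line depend on the prior count and are no measure of size.

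Of 24 tested regulators upstream of Dux, 8 were called lower in SE KO RA and none higher (17.0% and 11.2% of all genes), while 16 were not called. Without SE KO RA replicate 1, Trim66 was called higher (1.015, adjusted p = 0.030, edgeR). Dppa2 stood at 24.8 and 27.1 CPM in SE KO RA against 363 and 346 in Dux KD RA, 233 and 241 in RA and 110 and 116 in DMSO. The lines differed by a log2 fold change of -3.77 (SE 0.09, adjusted p = 5.64e-21), the SE KO falling below DMSO and Dux KD lying above RA. Dppa4 stood at 26.01 and 28.01 CPM against 87.2 and 93.6 (-1.74). Trp53, the gene of p53, stood at 88.3 and 78.4 CPM against 256 and 266, with 259 and 276 in RA. Smarcad1, a chromatin remodeller, stood at 48.4 and 51.5 CPM against 199.8 and 203.3. The members that fell thus include activators (Dppa2, Dppa4) and a repressor (Rif1, at -1.22) of Dux, although Rif1 lost its call with the GC correction, at -0.75. Ncl (-1.52), Lin28a (-1.12) and Atr (-1.27) were also called lower. With the GC correction Smarcad1, Ncl and Lin28a kept the call, at -1.67, -1.25 and -1.17, and Atr lost it, at -0.91.

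Of 20 naive pluripotency genes 11 were lower and 2 higher, and of 10 core genes 3 were lower and none higher (17.0% of all genes were lower and 11.2% higher). Klf4 stood at 47.1 and 48.9 CPM in SE KO RA against 243 and 237 in Dux KD RA and 255 and 247 in RA (log2 fold change -2.32, SE 0.16). Esrrb stood at 95.1 and 94.3 CPM against 386 and 377, with 503 and 530.2 in RA. Nanog stood at 441 and 433 CPM against 1181 and 1194. Against RA, Klf4 had a log2 fold change of -0.06 in Dux KD RA and -2.38 in SE KO RA. Pou5f1, the gene of Oct4, was not called, at 472 and 451 against 359.7 and 374.5 CPM. The 2 that were higher were Klf2 (315 and 283 against 98.7 and 100.2 CPM) and Socs3, a feedback inhibitor of LIF signalling (223 and 215 against 70.1 and 73.3 CPM).

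Genes of the RA pathway were lower in 8 of 27 and higher in 1 (17.0% of all genes were lower and 11.2% higher). With the GC correction 11 were lower and 1 higher, and Cyp26a1 was then called, at -1.04. Among RA-degrading enzymes and without that correction, Cyp26a1 was not called (log2 fold change -0.76) and Cyp26c1 was lower (-2.28, at 0.977 and 1.52 against 6.38 and 5.89 CPM). Rarb, an RA receptor and direct target, stood at 3.77 and 4.70 CPM in SE KO RA against 8.73 and 10.2 in Dux KD RA and 0.114 and 0.274 in DMSO. Both lines thus lay above DMSO. Of 21 Hox genes 3 were lower and 1 higher, shares below those of all genes. Among germline and meiosis genes 11 of 23 were lower and 2 higher (9 lower without SE KO RA replicate 1), with Hormad1, a meiotic chromosome axis gene, at 1.02 and 1.57 CPM in SE KO RA against 11.2 and 10.5 in Dux KD RA and 2.20 and 2.38 in RA, so that it was Dux KD RA that stood apart from RA. Of 29 primitive endoderm genes 11 were lower and 4 higher (9 lower without that library), and of 22 trophectoderm genes 7 and 2.

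Of 27 tested glycolysis and hypoxia genes, 22 were called higher and none lower in SE KO RA than in Dux KD RA (11.2% and 17.0% of all genes), with a median of 1.59 against -0.10 over all genes. With the GC correction 18 were higher, and without SE KO RA replicate 1, 21. Gapdh stood at 2068 and 2004 CPM in SE KO RA against 372 and 370.1 in Dux KD RA, and 1025 and 713 in RA, and the lines differed by a log2 fold change of 2.46 (SE 0.18, adjusted p = 1.22e-11). Ndrg1, a hypoxia-induced gene, stood at 109 and 127 CPM against 17.2 and 18.9, with 73.6 and 78.9 in RA. Eno2, an enolase, stood at 54.5 and 54.2 CPM against 6.38 and 8.01, with 13.1 and 13.7 in RA. Side by side against the same RA libraries, 6 of the 27 were called higher in SE KO RA (median 0.54) and 12 lower in Dux KD RA (median -0.97), where 6.57% of all genes were higher and 4.53% lower. Pdk1, Hk2 and Higd1a were not called, at 0.83, 0.67 and 0.00. Under PlaB the list turned, with 20 lower and none higher in SE KO (9.07% of all genes lower). The interaction was called higher under RA for 26 of 27 (15.9% of all genes).

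Integrated stress response genes, which ATF4 induces when translation is inhibited, were higher in 11 of 20 and lower in 1 (17.0% of all genes were lower and 11.2% higher). Ddit3, which encodes CHOP, stood at 61.3 and 66.5 CPM in SE KO RA against 6.26 and 6.07 in Dux KD RA, 6.21 and 5.68 in RA and 19.3 and 19.3 in DMSO (log2 fold change 3.37, SE 0.14). Chac1, a glutathione-degrading enzyme, stood at 25.03 and 22.5 CPM against 2.01 and 2.12, with 2.38 and 2.38 in RA. Trib3, a pseudokinase, stood at 58.0 and 59.9 CPM against 7.64 and 7.66, with 6.87 and 7.59 in RA. Against RA the log2 fold changes of these 3 were 0.05, -0.20 and 0.08 in Dux KD RA and 3.42, 3.32 and 3.03 in SE KO RA. Atf4 itself was not called, at 0.74. Slc7a11, a cystine transporter, was lower (-1.86). Under PlaB 8 of the 20 were lower and 2 higher in SE KO (9.07% and 12.5% of all genes). The interaction was called higher under RA for 13 and lower for 2 (15.9% and 21.6% of all genes). Other lists turned under PlaB as well, with germline genes higher in 11 of 23 and lower in 1. Primitive endoderm genes were higher in 13 of 29 and cholesterol synthesis genes lower in 7 of 24. Naive pluripotency genes were lower in 4 of 20 and higher in none under PlaB, with a median of -0.21 against -1.38 under RA. Their interaction was called lower under RA for 9 (21.6% of all genes) and higher for 2 (15.9%). Klf4 and Nanog, lower in SE KO under RA, had log2 fold changes of 0.04 and 0.08 under PlaB. Core genes were lower in 3 of 10 and higher in 1 under PlaB.

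The promoters of Trib3 and Chac1, from RefSeq (GRCm38.p6), are shown because the letters TGATGNAA, a composite element that ATF4 and CHOP bind, occur in them. Trib3 is at chr2:152344011-152344310 on the minus strand and Chac1 at chr2:119350992-119351291 on the plus strand, both printed 5′ to 3′ with the match, which is on the opposite strand, in capitals.
Trib3: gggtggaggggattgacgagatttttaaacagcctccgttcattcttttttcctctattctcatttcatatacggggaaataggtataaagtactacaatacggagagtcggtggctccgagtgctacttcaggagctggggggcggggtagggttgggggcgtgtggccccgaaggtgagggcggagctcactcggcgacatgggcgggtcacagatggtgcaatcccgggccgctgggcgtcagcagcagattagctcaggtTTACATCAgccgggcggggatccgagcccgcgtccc
Chac1: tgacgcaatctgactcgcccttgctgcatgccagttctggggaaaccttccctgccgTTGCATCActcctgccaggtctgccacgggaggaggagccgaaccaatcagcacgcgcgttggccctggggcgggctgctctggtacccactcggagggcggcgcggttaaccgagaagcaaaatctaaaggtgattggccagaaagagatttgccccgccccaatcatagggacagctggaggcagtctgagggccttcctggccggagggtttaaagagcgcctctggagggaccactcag
The letters were held by 7 of the 19 stress response promoters listed, on either strand (36.8%), against 2.85% of the 13364 promoters of tested genes and 3.53% of those called higher. For glycolysis and hypoxia genes, ACGTG, the core of the element that HIF binds, was in 17 of 24 promoters (70.8%) against 27.7% of all, and 27.5% of those called higher. Among genes called lower the shares were 3.4% for TGATGNAA and 24% for ACGTG. Both motifs were chosen after values were seen. The lists were drawn up from textbook knowledge of these responses, so their shares describe the lists and not the difference between the lines. In Pgk1 (chrX:106186850-106187149, plus strand), the capitals mark ACGTG on either strand.
Pgk1: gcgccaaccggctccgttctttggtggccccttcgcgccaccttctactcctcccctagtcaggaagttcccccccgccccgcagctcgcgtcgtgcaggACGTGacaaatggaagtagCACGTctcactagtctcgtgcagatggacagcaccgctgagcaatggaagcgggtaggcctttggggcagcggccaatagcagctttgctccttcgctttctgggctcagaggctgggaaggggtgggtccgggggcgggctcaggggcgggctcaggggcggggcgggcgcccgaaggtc
Pgk1 stood at 2489 and 2525 CPM in SE KO RA against 560.3 and 577.7 in Dux KD RA, and 1252 and 1311 in RA.

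The counts of the next 5 lists stand against 11.2% of all genes called higher and 17.0% lower. Cholesterol synthesis genes were higher in 7 of 24 and lower in 1, with Dhcr7, the last enzyme of the main synthesis route, at 236.9 and 231.4 CPM in SE KO RA against 49.7 and 52.0 in Dux KD RA and 88.5 and 98.0 in RA. Interferon response genes were higher in 9 of 27 and lower in 3 (8 higher without SE KO RA replicate 1), with B2m, a subunit of MHC class I, at 56.5 and 58.5 CPM against 16.3 and 15.3. Neural genes were higher in 8 of 22 and lower in 2, with Sox11, a neural progenitor factor, at 35.9 and 41.0 CPM against 10.8 and 8.48. Fibroblast markers were higher in 6 of 11 and lower in 1, Col1a1 at 23.9 and 21.9 CPM against 8.62 and 8.07. Mitochondrially encoded transcripts were lower in 6 of 15 and higher in 1, with a median of -0.18 that turned to 0.385 with the GC correction (3 higher), and their share of counts was 2.66% to 2.82% against 2.46% to 2.49%.

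**Figure D4:**
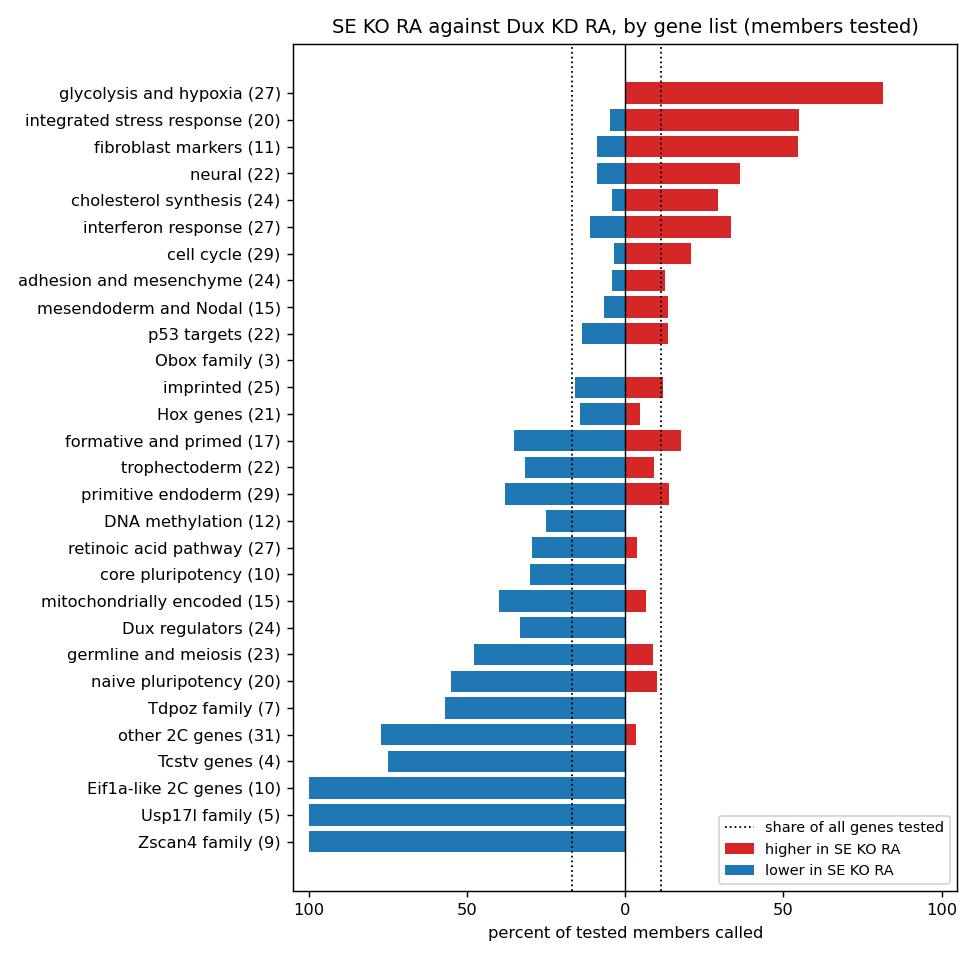
Percent of the tested members of each of 29 gene lists called higher (to the right) or lower (to the left) in SE KO RA than in Dux KD RA, with the number tested in brackets. Dotted lines mark the 11.2% and 17.0% of all genes. The Zscan4, Usp17l and Eif1a-like lists stand at 100% lower, and glycolysis and hypoxia furthest to the higher side.

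The named genes with the greatest differences over all genes mostly lay on opposite sides of parental RA. Choosing genes by the difference between the lines favours this, so it describes these genes only. Aspa, the aspartoacylase gene, had 2 counts in SE KO RA and 372 in Dux KD RA, a ratio of 244 (95% exact interval 67.1 to 2020). In RA it stood at 0.837 and 0.838 CPM, below the 10.3 and 11.4 of Dux KD RA. Lncenc1, a long noncoding RNA of naive ESCs, stood at 2.70 and 2.16 CPM in SE KO RA against 94.4 and 89.2 in Dux KD RA and 23.6 and 21.4 in RA (log2 fold change between lines -5.24, SE 0.15). H19, an imprinted noncoding RNA, stood at 0.326 and 0.254 CPM against 10.7 and 11.3, with 3.44 and 3.40 in RA. Ttn, the gene of titin, stood at 0.977 and 0.719 CPM against 33.4 and 31.7. The rest of the 12 greatest falls were Pramef17, Rbfaos, Ceacam20, Platr7, Zfp951, Platr3, Nlrp4c and Mup6, from -7.01 to -4.65.

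Among the greatest rises, Cyp24a1, the vitamin D hydroxylase, stood at 13.7 and 12.8 CPM in SE KO RA against 0.517 and 0.295 in Dux KD RA and 0.441 and 0.279 in RA (log2 fold change 5.00, SE 0.46). Fgf15, a fibroblast growth factor, stood at 12.4 and 14.1 CPM against 0.747 and 1.18, with 0.793 and 1.40 in RA and 38.3 and 36.5 in DMSO. For both, Dux KD RA overlapped with RA and SE KO RA stood apart. Prex1, a Rac exchange factor, stood at 89.4 and 84.4 CPM against 5.69 and 4.54, with 18.8 and 19.8 in RA between the lines. A further 8 were Ajap1, Hrc, Tmem151a, Igfbp6, Nxph4, C1ql4, Nrbp2 and Eln, from 4.77 to 3.61.

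**Figure D5:**
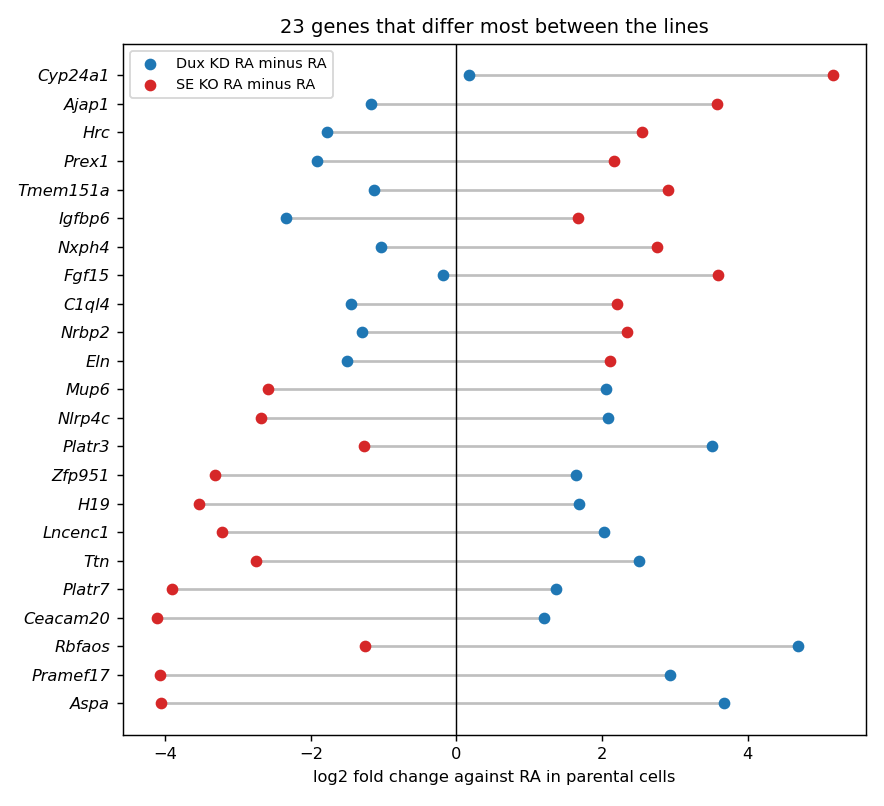
Log2 fold change against parental RA in SE KO RA (red) and Dux KD RA (blue) for the 12 named genes with the greatest fall and 11 of the 12 with the greatest rise between the lines. For most genes the points lie on opposite sides of 0, which the choice by difference between the lines favours. For Cyp24a1 and Fgf15 the Dux KD point lies near 0. Both effects use the same RA libraries.

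Differences between the lines were not spread evenly along the genome. Over genes of at least 2 CPM, the median log2 fold change by chromosome ran from -0.48 on chromosome 13 and -0.34 on chromosome 1 to 0.36 on chromosome 15 and 0.39 on chromosome 17. With the GC correction these 4 medians were -0.31, -0.26, 0.23 and 0.25, and the highest was 0.34 on chromosome 12. In the same order, the 4 medians against RA were -0.34, -0.38, 0.32 and 0.27 in SE KO RA. In Dux KD RA they were 0.11, -0.04, -0.12 and -0.10. Whether the lines differ in chromosome number was not tested.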

How the data were processed

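Poly(A) RNA-seq was measured in 26 libraries of 13 groups, 2 each. As deposited by the authors, the values are unnormalized whole counts of reads for 55291 genes. The submitters' processing notes name FastQC, Trimmomatic, STAR, featureCounts, DESeq2 and mm10, with no versions. The strand setting and the handling of reads that map to several places are not given in the sources used here, so overlapping genes and near-identical copies are uncertain. Of the genes tested, 20261 of 20458 named in GENCODE M21 (GRCm38) have the same position there.

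Groups were taken from sample titles. Counts were tested with edgeR 4.0.16 (R 4.3.3) in 1 quasi-likelihood model of all 26 libraries with TMM normalization, filterByExpr (20953 genes kept), a prior count of 0.125 and Benjamini-Hochberg adjustment over all genes. A gene was called with an adjusted p under 0.05 and a log2 difference of 1 or more in size. CPM used TMM library sizes. With 2 libraries a group, the estimate of error borrows from all groups, and p-values measure the spread between these samples, which may be technical, since nothing says that they came from separate cultures. Replicates differed by more than sampling noise (chi-square per degree of freedom 2.76 in SE KO RA and 1.55 in Dux KD RA). DESeq2 1.42.0 was an alternative. Scripts were tested on simulated data.

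The members and gene lists were chosen with earlier results of these data known. Genes named were Duxf3, Tdpoz3, Tdpoz4, Zscan4c, Zfp352 and Obox3, the 12 called higher and 12 called lower with the largest log2 fold change (at least 5 CPM in the higher group, no overlap between libraries, no numbered or pseudogene symbol), and up to 4 called members of each list with the largest change. 1 gene that this rule picks is not reported here and was not replaced. Other list members named are given with their values. Intervals and the floor of 3 counts per library cover counting error only, because the reads carry no molecular identifiers.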

Additional observations from a re-analysis of the deposited data

Results flagged for a closer look

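The first set of results was singled out because the difference between the lines was opposite in sign under RA and PlaB and the interaction contrast in edgeR was called. On the log2 scale, the difference SE KO minus Dux KD was lower under RA than under PlaB by these fitted values, namely Duxf3 -6.95, Tdpoz3 -6.52, Tdpoz4 -4.45, Zscan4c -9.53 and Zfp352 -6.10. The adjusted p ranged from 2.17e-23 for Zscan4c to 0.000477 for Tdpoz4 in the edgeR model. Both replicates of each line showed the order for Zscan4c. For Duxf3 the difference under RA was not called and the lines overlapped, so its sign there is uncertain. The Dux KD PlaB libraries held almost no counts for Duxf3, Tdpoz3, Tdpoz4 and Zfp352, so the fitted sizes for these depend on the prior count.

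The second set holds named genes that were called between the lines and called in opposite directions against parental RA. The effects of the lines thus differed by the edgeR contrast between them. Many were named for a large difference between the lines, which favours opposite directions. The fitted log2 fold changes, SE KO RA minus Dux KD RA, of the 25 lower in SE KO RA were Aspa -7.74, Pramef17 -7.01, Rbfaos -5.95, Pramel7 -5.73, Pramel6 -5.64, Ceacam20 -5.32, Platr7 -5.29, Ttn -5.26, Lncenc1 -5.24, H19 -5.22, Zfp951 -4.95, Nlrp4c -4.76, Mup6 -4.65, Srgn -4.20, Xlr3b -4.05, Cubn -3.88, Neurod1 -3.64, Gata3 -3.56, Tex19.2 -3.54, Abcb5 -3.53, Xlr3a -3.40, Foxd3 -3.27, Rex2 -2.57, Cyp26c1 -2.28 and mt-Nd4l -2.26. Those of the 11 higher in SE KO RA were Aldoa 2.29, Gapdh 2.46, Eln 3.61, Nrbp2 3.64, C1ql4 3.65, Nxph4 3.80, Igfbp6 4.01, Prex1 4.08, Thbd 4.11, Hrc 4.32 and Ajap1 4.77. Of these, Aspa, Pramel7 and Pramel6 had 1 or 2 counts in SE KO RA, and their ratios with counting intervals are the firmer values. Both effects use the same RA libraries. Groups of 2 libraries were too small for a search for single libraries far from the rest, so none was made.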

How the results depend on the processing

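Of 1430 log2 fold changes of the 130 named genes under 11 alternatives, none reversed. With no minimum fold change, 5508 genes were higher and 6469 lower. The numbers called lay between 1804 and 2644 (higher) and between 3019 and 4037 (lower) under the other alternatives. Leaving out 1 library at a time gave 2151 to 2236 higher and 3019 to 3073 lower genes, 54 to 56 2C genes lower and 1 higher, and 89 to 93 list members higher and 144 to 145 lower. Scaling by library size alone moved the median log2 fold change of all genes from -0.10 to -0.22. With it 1927 genes were higher and 4037 lower. The fits with replicate number as a block gave 2323 higher and 3531 lower genes and changed no call of a named gene. The block is an alternative only, since nothing in the labels pairs same-numbered libraries and the correlation of their deviations from the group means was 0.000981. Cldn7 (0.60 without SE KO RA replicate 1, 0.91 without Dux KD RA replicate 2) and Cldn6 (0.99 without Dux KD RA replicate 1) fell below the minimum fold change, and Fgf8, Nr2f2, Psmb8, Irf7, Afp, Tdpoz4 and Tdpoz8, all of low counts, each lost the call without 1 library or more. DESeq2 did not call Tdpoz6, Fgf8 or Psmb8, library size alone Cldn6 or Cldn7, and the fit without the low-count filter Fgf8. With the GC correction Cldn6, Cldn7, Col1a1, Trp53inp1, Ccne2, Cdkn2c, Rif1 and Fgf8 were no longer called and Duxf3 was, at -1.78. The balance of higher and lower members in the p53 target, imprinted, adhesion and mesendoderm lists, and the sign of the median of the mitochondrial list, changed with the alternative, so no direction is given for them. Counts are low for Duxf3, Obox3 and the Tdpoz genes.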

Other observations

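Gene families outside the lists, picked after values were seen and so with no test, are given next, beside 17.0% of all genes called lower and 11.2% called higher. All 8 tested Xlr genes, an X-linked family expressed in lymphoid and germ cells, were lower in SE KO RA than in Dux KD RA (median log2 fold change -3.86). In Dux KD RA 7 of the 8 were called above parental RA (6.41% of all genes in that comparison). Of 9 Rhox genes, an X-linked homeobox cluster of the reproductive tract and placenta, 7 were lower (median -2.19). Of 12 Nlrp genes, among them several of the oocyte, 8 were lower (median -2.12), and of 24 Platr transcripts, noncoding RNAs tied to pluripotency, 16 were lower and none higher. Of 79 tested olfactory and vomeronasal receptor genes, which are hardly expressed in ESCs, 40 were lower and none higher. Receptor genes without enough counts in any group were not tested. Those tested were thus chosen in part by where they are high, and the count does not speak for the family. Their median GC was 39.2%, and genes below 40% GC had a median of -0.60, a part that was not tested. Of 12 Srsf splicing factor genes 5 were lower. Of 79 ribosomal protein genes 11 were higher, a share near that of all genes, and 3 lower, with a median of 0.50. Members of a family lie close together and share sequence, so they are not independent.

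Under the GC correction the median GC content of genes called lower was 48.6%, of genes not called 49.2% and of genes called higher 51.9%, closer together than without it.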
